A study of Mus musculus with 2 samples.

Results

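The transcription factor p53, encoded by Trp53, and 9 of its best known target genes and regulators were followed on 2 arrays of mouse blood RNA. The 10 genes were Trp53, Mdm2, Mdm4, Cdkn1a, Ccng1, Phlda3, Sesn2, Trp53inp1, Gadd45a and Fas, chosen by name, and every probe outside the controls whose gene name in the array files equals one of these symbols was taken. This gave 22 probes of 56605 and all 10 genes, out of 37074 gene names on the array. The heat group was 1 array, labelled as mouse blood, treated for 1 h at 38.5 °C after 1 h of water bath pretreatment at 37 °C. The control group was 1 array of control mouse blood, for which no temperature or time is given, so heat, the water bath and handling cannot be told apart. The series text names blood collection after the heat steps. Strain, age and what exactly was placed in the bath are not given in the sources used here, and the labels mention 3 replicates per line while each group held 1 array. With single arrays there is no replicate check of any difference below, and no p-value is given.

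The p53 protein is held at a low level in unstressed cells by Mdm2, a ubiquitin ligase that marks it for breakdown, and by Mdm4, which binds its activation domain. DNA damage and other stress free p53 from this hold, mainly by changes to the protein rather than by more Trp53 mRNA. It then binds DNA and raises transcription of genes for cell cycle arrest (Cdkn1a, Gadd45a), growth control (Sesn2, Phlda3), cell death (Fas, Trp53inp1) and its own restraint (Mdm2, Ccng1), so the mRNA of the targets is a common readout of p53 activity.

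The sequences that matter for reading the values are p53 sites and probes. A p53 site was searched as 2 copies of the p53 half-site consensus side by side, 20 bases in all and the same on both strands, with up to 2 mismatches. The rule was chosen with the promoters of these genes in view. RefSeq promoter windows of 300 bases (GRCm38.p6, 250 before to 50 after a start) matched 9 of the 10 genes with 11 windows. Trp53inp1 did not match. A site was found in 2 of the 11 windows, with 1 mismatch in each, against 0.798% of all 32851 windows with up to 2 mismatches and 0.0883% with up to 1. Sequence outside these windows, introns included, was not searched, so a window without a site does not mean a gene without one. The site of Cdkn1a ends 31 bases before the upstream one of its 2 starts, and that of Ccng1 ends 175 bases before its start. The core CATG, which is also the same on both strands, was in 4 of the 11 windows, against 61.1% of all windows. The Cdkn1a window held 3, of which 2 lie inside its p53 site. The 250 bases before each start are shown with the p53 site in capitals, Cdkn1a at chr17:29090729-29090978 (plus strand) and Ccng1 at chr11:40755287-40755536 (minus strand).
Cdkn1a upstream: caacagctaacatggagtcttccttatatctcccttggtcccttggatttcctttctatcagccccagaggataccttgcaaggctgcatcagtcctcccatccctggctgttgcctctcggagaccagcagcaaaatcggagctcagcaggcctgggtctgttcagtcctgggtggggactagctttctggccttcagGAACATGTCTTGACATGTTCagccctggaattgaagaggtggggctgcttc
Ccng1 upstream: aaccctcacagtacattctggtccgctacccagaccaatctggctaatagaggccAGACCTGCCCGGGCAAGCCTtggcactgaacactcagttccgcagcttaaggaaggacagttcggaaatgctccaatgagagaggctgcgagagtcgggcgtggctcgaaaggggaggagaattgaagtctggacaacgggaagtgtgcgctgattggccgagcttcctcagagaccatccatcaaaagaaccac

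Among the probes, the only one for Trp53 is shown because the level of the p53 gene rests on it alone. It lies at chr11:69403134-69403193 (mm9, the build of the array files), from position 989 of its transcript record. One of the 3 probes named Fas is shown because it does not lie at the Fas gene. Its record describes a Fas mRNA that contains the long terminal repeat of ETn, a family of mouse retrotransposons, and an ETn insertion in Fas is the known lpr mutation of mice. The array files place it at chr4:40555124-40555183, whereas the other 2 Fas probes lie on chromosome 19. All 60 of its bases were found in the promoter window of LOC108167564 and 59 of them in that of A630077J23Rik, in the same orientation. Capitals mark the bases common to both windows. The value of this probe cannot be assigned to Fas.
Trp53 probe: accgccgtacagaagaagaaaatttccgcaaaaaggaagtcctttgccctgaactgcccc
Fas probe of the ETn record: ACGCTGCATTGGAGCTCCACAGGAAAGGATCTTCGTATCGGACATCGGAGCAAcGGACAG

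Of the 22 probes, 21 were usable, that is, marked by the scanner software as well above background in both samples. The exception was 1 of the 2 Gadd45a probes, with signals of 5.44 in heat and 6.46 in control. Its 60 bases matched the promoter window of the RNA gene E230016M11Rik on the opposite strand, and no fold is given for it. Signals are the linear processed intensity of each array, and each is given before scaling between arrays. A difference is log2 of the heat signal minus log2 of the control signal after each array was divided by its 75th percentile. Error is given in 2 ways. The scanner's own error model, which assumes about 10% per signal, gives each probe's difference a standard error (SE). The measured SD of single-spot differences, from 283 detected probes printed at 10 spots each, was 0.08. This SD is pooled over probes of any brightness, so it is no matched measure for dim probes. Neither the SE nor the SD covers the spread between animals.

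**Figure D1:**
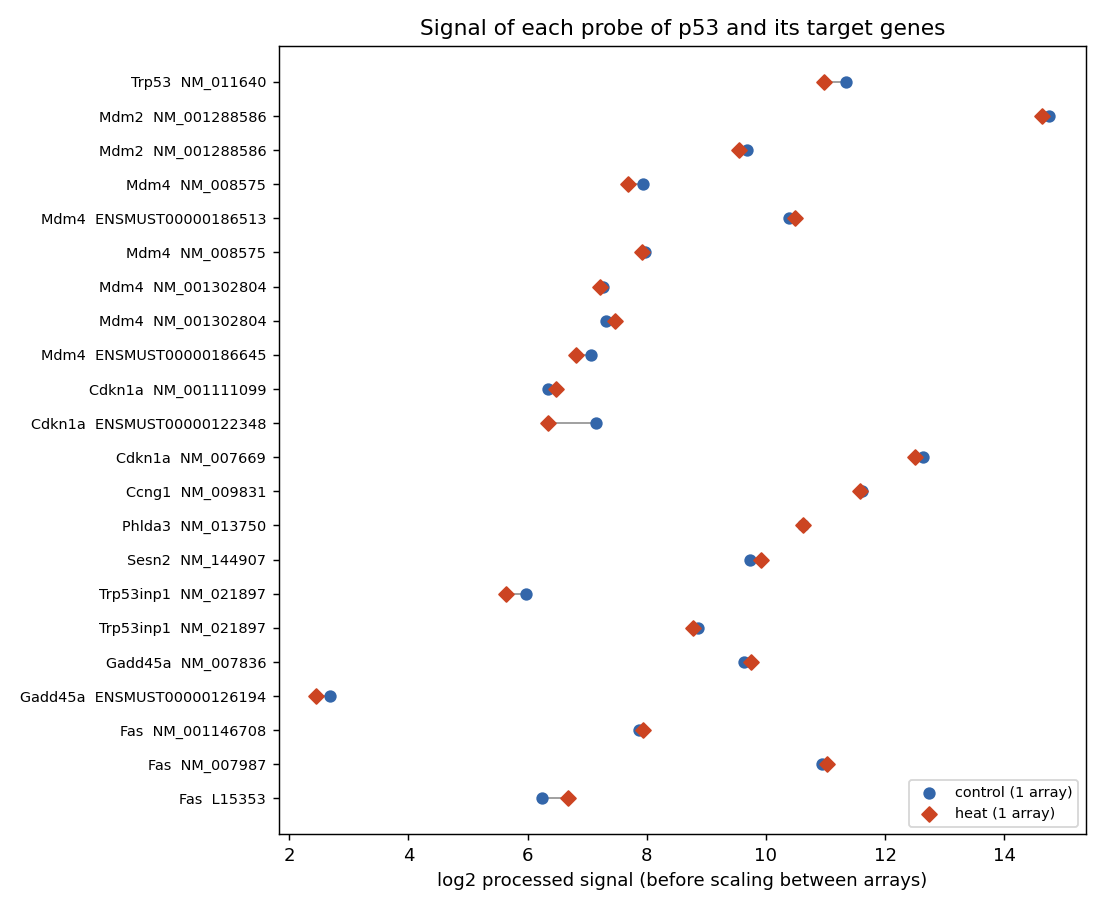
Log2 processed signal (horizontal axis) of each of the 22 probes, with 1 diamond for the heat array and 1 circle for the control array, and the gene and transcript record on the vertical axis. Most pairs nearly coincide, and the widest gaps above background are those of the Cdkn1a probe ENSMUST00000122348 (81.0 against 142), the ETn probe named Fas (L15353, 102 against 75.7) and Trp53 (2003 against 2612).

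Trp53, which encodes p53 itself, was lower in the heated sample than in the control sample, and it was the gene farthest from 0 among the 10. Its probe had a signal of 2003 in heat and 2612 in control. The difference was -0.34 ± 0.20 (SE of the error model), a level 1.27-fold higher in control. Of all 18562 genes with at least 1 usable probe, 10.03% were as far apart as Trp53 or farther in either direction, and 5.16% were as low or lower. Among the 2860 probes within 0.5 log2 units of its brightness, 3.04% were as far apart. With normexp background correction the difference was -0.25, or -0.24 with quantile normalization added, both under 1.2-fold. RefSeq lists a Trp53 pseudogene, and whether the probe also matches it was not tested.

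None of the 9 other genes was 1.2-fold apart, although Cdkn1a just passed that limit, at -0.26, with cyclic loess normalization. Their differences ran from -0.23 to 0.23 with a median of 0.00, 5 of them above 0 and 4 below. Both ends rest on single probes described below. Cdkn1a, the lowest, was 0.04 without its lowest probe, and Fas, the highest, was 0.12 without the ETn probe. Over all 18562 genes the median was 0.01 and 52.2% were above 0. The difference of Trp53 lay 0.35 below the median of the other 9, written as -0.35. None of the 10 was 2-fold apart, against 0.663% of all genes, and 1 of the 10 was at least 1.2-fold apart, against 16.5% of all genes. That 1 gene was Trp53, in the lower direction, which held 8.13% of all genes. Of the 21 usable probes, 10 were above 0 and 11 below, and 4 were at least 1.2-fold apart, against 17.4% of all usable probes. None of the 21 was 2-fold apart, against 0.689% of all usable probes. The 4 were those of Trp53, 1 of Cdkn1a, 1 of Trp53inp1 and the ETn probe named Fas.

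**Figure D2:**
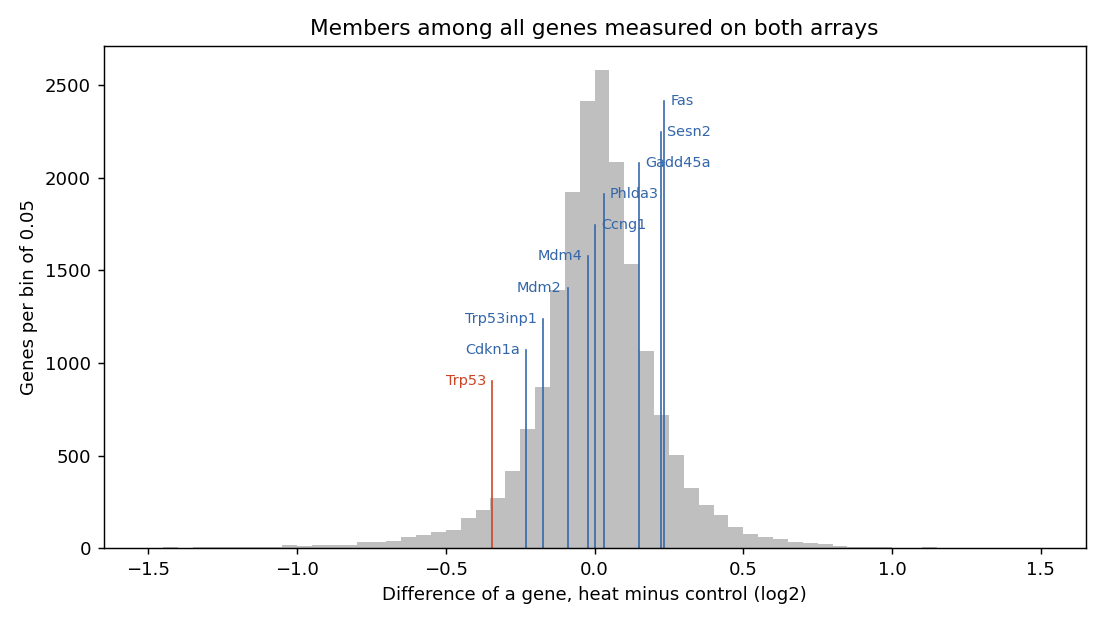
Number of genes (vertical axis) in bins of 0.05 of the difference, heat minus control on the log2 scale (horizontal axis), for all 18562 genes, with a line at each of the 10 genes, whose heights only separate the labels. Trp53 at -0.34 lies to the left of the other 9, which sit between -0.23 (Cdkn1a) and 0.23 (Fas), each the mean over all usable probes. Outside the plotted range lie 27 genes below and 14 above.

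The regulators that hold p53 in check differed little. Mdm2 had 2 probes, and both were slightly lower in heat. The first had signals of 25302 in heat and 27515 in control, a difference of -0.08, and the second, with 745 and 820, a difference of -0.10. With normexp the first had -0.21, or -0.19 with quantile normalization added. The second then had -0.06 and -0.08. The second crosses a splice junction, since its 60 bases span 2879 bases of the genome (mm9, chr10:117139375-117142253). The gene value was -0.09, and 55.2% of all genes were at least as far apart. Mdm2 is itself a p53 target, so it is both a restraint and a readout.

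Mdm4, the relative of Mdm2 that blocks p53 without marking it for breakdown, had the most probes, and they went both ways. Of its 6 usable probes, 2 were higher in heat and 4 lower, from -0.22 to 0.19, and the mean was -0.02. The lowest difference came from a probe with signals of 205 in heat and 245 in control. The highest came from a probe with 176 and 159. The brightest Mdm4 probe, with 1429 and 1338, had 0.13, and it belongs to a transcript record of Ensembl and not of RefSeq. The pair of probes below is shown because they share 6 bases (capitals) of the same transcript, yet differed by 0.19 and -0.01. Neither difference exceeded the SE of 0.22 that the error model gives each. The error of the separation between them was not computed, and the single-spot SD of 0.08 is not matched to their brightness. Of the probes of like brightness, 39.4% were at least as far from 0 as the first and 94.4% as the second. The first lies at chr1:134907660-134907719 and the second, which crosses a splice junction, at chr1:134905734-134907665 (mm9, minus strand). RefSeq also lists an Mdm4 pseudogene, and a match to it was not tested.
Mdm4 probe, first: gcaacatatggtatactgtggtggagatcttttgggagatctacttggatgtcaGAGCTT
Mdm4 probe, second: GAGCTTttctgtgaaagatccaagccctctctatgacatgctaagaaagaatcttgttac

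Among the arrest genes, the 3 probes of Cdkn1a disagreed. Cdkn1a encodes p21, the inhibitor of cyclin-dependent kinases through which p53 stops the cell cycle. Its probe near the end of the main transcript (position 1619, chr17:29237377-29237436, mm9) was bright, with signals of 5820 in heat and 6340 in control, and differed by -0.08 ± 0.20. The probe at position 55 of the record NM_001111099 (chr17:29227986-29228045) had 88.8 in heat and 81.5 in control, a difference of 0.16 ± 0.25. The third, of the Ensembl record ENSMUST00000122348 (chr17:29235299-29235358), had 81.0 and 142, a difference of -0.77 ± 0.23. It was the largest of the 21, and 2.81% of the 3562 probes of like brightness were as far apart. The mean over the 3 probes was -0.23, and without the third it was 0.04, so this dim probe set both the size and the sign of the gene value. With normexp the third probe had -0.43, or -0.49 with quantile normalization added.

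Gadd45a, whose protein slows the cycle before mitosis and takes part in DNA repair, had 1 usable probe. Its signals were 858 in heat and 794 in control, and the difference was 0.15 ± 0.20. Ccng1, which encodes cyclin G1, a partner in the negative feedback on p53, had 3047 in heat and 3124 in control. After scaling its difference was 0.00 ± 0.20, the smallest of the 10, and its promoter holds 1 of the p53 sites shown above. Both values were smaller than the SE of the error model, while that of Gadd45a was larger than the single-spot SD of 0.08. Of the probes as bright as that of Gadd45a, 30.9% were as far apart.

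Among the growth and stress control genes, Sesn2 was higher in heat and Phlda3 nearly level. Sesn2 encodes sestrin 2, which restrains the growth kinase mTORC1 and limits oxidative damage. Its only probe had signals of 972 in heat and 855 in control, a difference of 0.22 ± 0.20, and 21.3% of all genes were at least as far apart. Phlda3 encodes a pleckstrin homology protein that competes with the survival kinase AKT for the membrane. Its probe had 1570 and 1579, a difference of 0.03 ± 0.20.

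Of the death genes, Trp53inp1 was lower and Fas higher, both under 1.2-fold, and in each the widest difference came from the dimmest probe. Trp53inp1 encodes a nuclear protein that favours p53-driven death and autophagy. Its probe at position 5041 had signals of 438 in heat and 466 in control, a difference of -0.05 ± 0.21. The probe at position 659 had 49.9 and 62.9, a difference of -0.30 ± 0.29, and 35.4% of the 3649 probes of like brightness were as far apart. The gene value was -0.17.

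Fas encodes the death receptor CD95, which starts caspase cascades when bound by its ligand. Its probe of the main transcript (chr19:34402164-34402223, mm9) had signals of 2094 in heat and 1956 in control, a difference of 0.14 ± 0.20. The probe of transcript variant 2 (chr19:34383733-34383792) had 244 and 235, a difference of 0.10 ± 0.21. The ETn probe on chromosome 4 had 102 and 75.7, a difference of 0.47 ± 0.25, the highest of the 21, and 11.2% of the 3615 probes of like brightness were as far apart. The mean of the 3 was 0.23, and without the ETn probe it was 0.12. Both probes at the Fas gene were thus slightly higher in heat, by less than the SE of the error model and by more than the single-spot SD of 0.08. Of the probes of like brightness, 30.6% were as far apart as the probe of the main transcript and 61.1% as that of variant 2. Neither thus stood out.

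**Figure D3:**
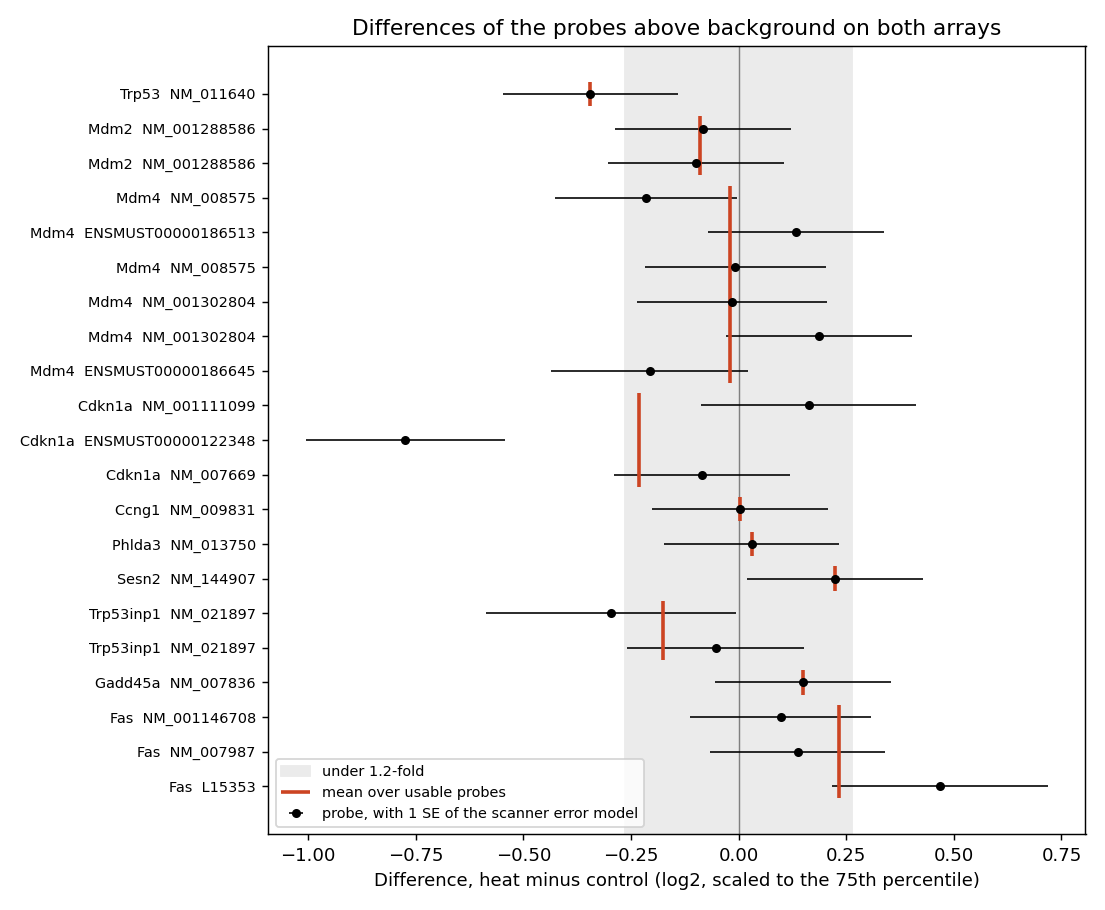
Difference, heat minus control on the log2 scale (horizontal axis), of each of the 21 usable probes (vertical axis), with points for probes, bars of 1 SE of the scanner error model and a red line at each gene's mean. Points lie outside the grey band of 1.2-fold for Trp53 (-0.34), Cdkn1a ENSMUST00000122348 (-0.77), Trp53inp1 at position 659 (-0.30) and Fas L15353 (0.47).

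Probes of the same gene did not always have the same sign. Of the 10 genes, 5 had 1 usable probe and 5 had several. Among the latter, all probes had 1 sign in 3 (Mdm2, Trp53inp1 and Fas) and both signs in 2 (Mdm4 and Cdkn1a). Of the 6553 genes of the array with several usable probes, 52.1% had probes of 1 sign. The median size of the difference was 0.12 over the 10 of these probes with a heat signal of at least 500 and 0.19 over the 11 dimmer ones. Over all usable probes it was 0.08 and 0.15. Leaving out Trp53, no probe of the 10 genes with a signal of at least 500 differed by more than 0.22.

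The wider p53 pathway was taken as 6 lists of 66 genes, of which 62 were measured on both arrays. None of the 62 was 2-fold apart, 3 were at least 1.2-fold higher and 1 at least 1.2-fold lower. That is 6.45% of them, against 16.5% of all genes, but these shares are not matched for brightness. Among the brighter detected probes, those at or above the median of the detected probes, 704 of 10837 genes were at least 1.2-fold apart. Each list kept most of its genes there, but how many of those were past 1.2-fold was not counted. Whether the list genes differed less than genes of like brightness was therefore not tested. Their median was -0.03, against 0.01 over all genes.

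Upstream of p53, all 14 genes for kinases, coactivators and stabilisers were measured, 5 above 0 and 9 below, with a median of -0.03 and none past 1.2-fold. Prkdc, the catalytic subunit of DNA-dependent protein kinase, had -0.20. The damage kinase Atr had -0.15, the mean of 7 probes, its partner kinase Atm had -0.14 and the checkpoint kinase Chek1 -0.14. The named genes of these lists have 1 sign at every usable probe because the rule for naming them asked for it. Of the 6 other inhibitors and family members, 3 were above 0 and 3 below, with a median of -0.02 and none past 1.2-fold. The ubiquitin ligase Rchy1 had 0.13, the ligase Rfwd2 (COP1) -0.06, and the p53 relatives Trp73 and Trp63 had -0.05 and 0.01.

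Of 8 other arrest targets, 7 were measured, 5 above 0 and 2 below, with a median of 0.11. The antiproliferative gene Btg2 was higher by 0.43, at 0.41 and 0.46 in its 2 probes, the brighter with signals of 562 in heat and 434 in control. Psrc1, which encodes a spindle protein, was higher by 0.35 with signals of 1104 and 889. Both were the only genes of this list past 1.2-fold higher, which 8.37% of all genes passed, and both stayed past it in every alternative that gave them a value. Sesn1, the relative of Sesn2, had 0.23 and the kinase gene Plk2 -0.12.

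Of 13 other death targets, 11 were measured, 4 above 0 and 7 below, with a median of -0.08 and none past 1.2-fold. Tnfrsf10b, the TRAIL death receptor, had -0.23 and the nuclease gene Aen -0.19. Ei24 had -0.16, and Bbc3, which encodes the BH3-only protein PUMA, had -0.12. Of 15 other repair and metabolism targets, 14 were measured, 7 above 0 and 7 below, with a median of -0.01. Rrm2b, the p53-inducible subunit of ribonucleotide reductase, had the largest difference of the 62 genes, at -0.73 from 1 dim probe with signals of 71.7 in heat and 122 in control. With normexp it had -0.34, or -0.40 with quantile normalization added. Polk, a lesion-bypass DNA polymerase, had 0.28 over 3 probes from 0.14 to 0.55, and was under 1.2-fold in 6 of 11 alternatives. Tigar, a phosphatase that slows glycolysis, had -0.25 and Ddit4, an inhibitor of mTORC1, -0.23.

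The 10 genes that p21 can silence through the DREAM complex, all of them of cell division, were measured, 4 above 0 and 6 below. Their median was -0.02 and none was past 1.2-fold. They were not silent on either array. Their brightest probes had signals from 1779 (Cdc25c) to 48093 (Birc5) in heat and from 1742 to 51954 in control. The 75th percentiles of the arrays were 604 and 620. Cyclin B2 (Ccnb2) had 0.12, the spindle checkpoint kinase Bub1 -0.11, survivin (Birc5) -0.07 and the phosphatase gene Cdc25c 0.07.

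**Figure D4:**
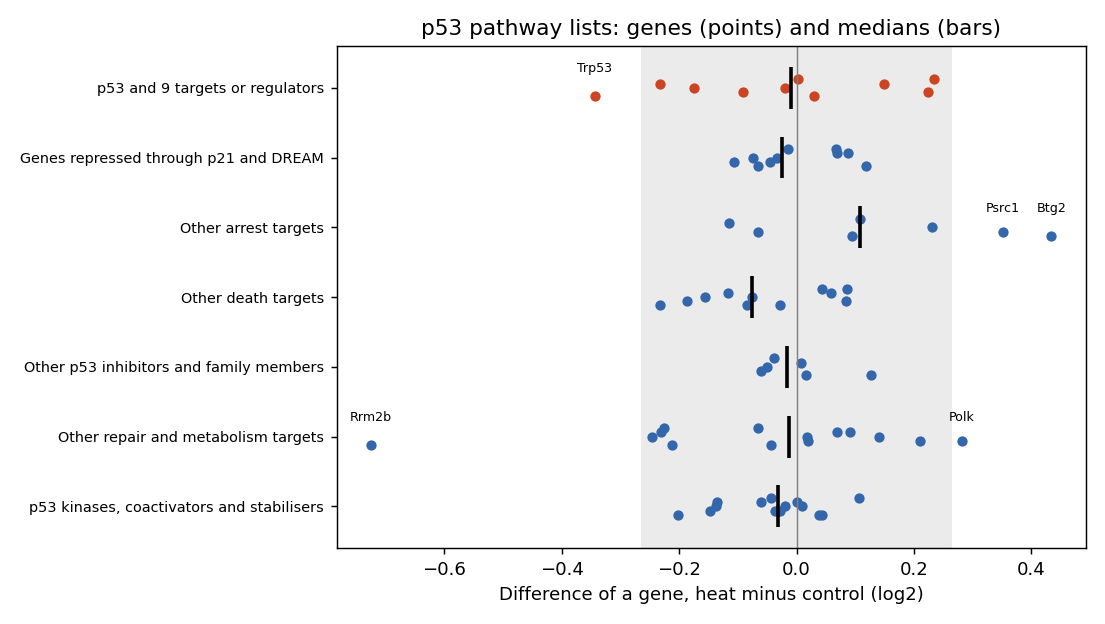
Difference, heat minus control on the log2 scale (horizontal axis), of the 10 genes and of the genes of 6 further p53 lists (vertical axis); points are genes, spread vertically only for sight, black bars are medians and the grey band is 1.2-fold. The medians lie between -0.08 and 0.11, and Trp53, Btg2, Psrc1, Polk and Rrm2b lie outside the band.

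The arrays as a whole were close. Of the probes outside the controls, 30471 were well above background in heat and 29460 in control. The heat-inducible HSP70 genes Hspa1a and Hspa1b differed by 0.28 and 0.31, each from 1 probe. Both were at least 1.2-fold higher in heat, as were 8.37% of all genes, so this check of the heat was weak. All 6 monocyte and macrophage markers, such as Lyz2 and Csf1r, were detected on both arrays, as were 4 of 6 T cell and 4 of 6 neutrophil markers. Their levels were far apart. The brightest probes of the monocyte and macrophage markers had heat signals from 10630 (Itgam) to 232293 (Lyz2). Those of the T cell markers ran from 59.4 (Cd3d) to 1447 (Cd4), and those of the neutrophil markers from 1762 (S100a8) to 51463 (Csf3r). Lyz2, Cd68 and Csf1r were the brightest of all markers detected. Of the B cell markers 1 of 5 was detected (Cd79b, 219 in heat) and of the platelet markers 1 of 5 (Pf4, 11483 in heat). Of the erythroid markers 0 of 5 were detected, although the label is blood. The labels' protocols include red cell lysis and globin removal, and their part in these counts was not tested. The monocyte and macrophage markers had a median difference of 0.05 and none was 1.2-fold apart, the 4 neutrophil markers had a median of 0.06 with none 1.2-fold apart, and the 4 T cell markers had a median of 0.16. Of the T cell markers, Cd3d had 0.29 from a dim probe (59.4 in heat, 49.8 in control), Cd4 0.18, Lck 0.14 and Cd3e -0.12. Cd79b had 0.33 and Pf4 0.26. The part of cell makeup in the values above was not tested. In such bulk RNA, fewer cells of a type and less RNA per cell cannot be told apart.

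**Figure D5:**
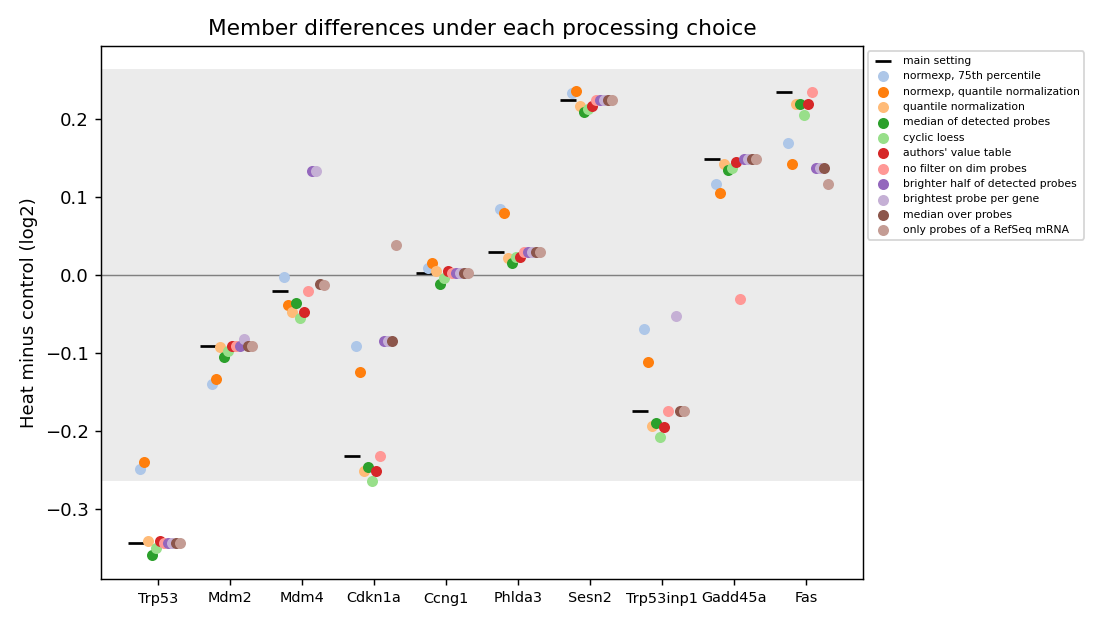
Difference, heat minus control on the log2 scale (vertical axis), of each of the 10 genes (horizontal axis) in the main setting (black bar) and under 11 processing alternatives, 10 for Trp53inp1 (coloured points); the grey band is 1.2-fold. Trp53 stays below 0 throughout, from -0.36 to -0.24, and enters the band in both normexp settings, while Cdkn1a runs from -0.26 to 0.04.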

How the data were processed

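Total RNA of mouse blood was labelled with Cy3 and hybridised to 1-colour Agilent arrays, 1 heat and 1 control. Per the file headers, the deposited scanner files hold linear intensity values of the green channel from Agilent Feature Extraction 10.7.1.1 (processed signal with spatial and multiplicative detrending, local background correction off and surrogate values near background; its error, mean signal and local background) and 0/1 flags, with mm9 probe positions; the submitters' processing notes name version 9.1. The authors' deposited value table holds log2 values with the same median, 5.26, in both columns, in the same direction as the log2 processed signals (r 0.9999 on both arrays).

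Spots marked as outliers by the scanner software, 168 in heat and 149 in control, were dropped, and none was saturated. Log2 processed signals were averaged per probe and centred on each array's 75th percentile (604 and 620 in linear signal, heat and control). A gene is a name in the files' gene name column, and its difference is the mean over probes with over 0.5 of their spots well above background on both arrays (28755 probes). The 2-fold and 1.2-fold limits carry no p-value. The genes named are all 10 members and, of each list, up to 4 with the largest difference of 1 sign at every usable probe, with Hspa1a and Hspa1b as a check of the heat; Polk, Btg2, Psrc1 and Rrm2b are also the only list genes past 1.2-fold. Members and lists were chosen with earlier results of these data known. The averaging of probes into genes and the fold limits were tested on simulated data, with noise of the same size at every brightness. Normalization, the filters on spots and probes and the sequence searches were not tested in this way. R 4.3.3, limma 3.58.1, Python 3.11.15, numpy 2.4.6 and pandas 2.3.3 were used. The alternatives were normexp (offset 50) with either scaling, quantile normalization, cyclic loess, centring on the median of the probes detected, the authors' values, no filter on dim probes, the brighter detected probes (at or above their median), the brightest probe, and the median over probes. The normexp settings used the mean signal and local background, without the detrending of the processed signal. Limiting probes to RefSeq records was added after seeing the data.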

Additional observations from a re-analysis of the deposited data

How the results depend on the processing

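The count of the 10 genes that were 2-fold apart was 0 in every alternative, of 9 genes among the brighter detected probes, where Trp53inp1 had no value. Trp53 stayed below 0 in all 11, at -0.25 with normexp and -0.24 with normexp and quantile normalization; its distance from the median of the other 9 was then -0.26 in both. The count past 1.2-fold fell from 1 to 0 in these 2 settings and was 2 with cyclic loess, where Cdkn1a joined Trp53. Over all genes, the count past 2-fold was 36 and 38 in the normexp settings, 1735 without the filter on dim probes and 17 among the brighter detected probes, and past 1.2-fold it was 1463, 1360, 12199 and 704; the last pair of settings tested other numbers of genes, 37068 and 10837. Of 239 values under alternatives, 208 moved by less than 0.08, or for counts by at most 1.5 times, and none that passed 1.2-fold changed sign. Mdm4 had 0.13 from its brightest probe, Gadd45a -0.03 with its dim probe kept, and Cdkn1a 0.04 with RefSeq records alone. The cause was not tested. Limits: 1 array per group, and 11 of the 21 probes have a heat signal under 500, where differences were wider. No paired analysis was possible because each group held 1 array, and no array could be left out.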

Other observations

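Wrap53, the gene antisense to Trp53, was looked up after the values were seen. Its probe had signals of 3523 in heat and 3360 in control, a difference of 0.11, while Trp53 had -0.34. Lincpint, a long non-coding RNA induced by p53, had -0.18 and -0.09 at its 2 probes, with signals of 336 and 392 at the brighter.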
